A study of Mus musculus with 8 samples.

Results

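The genes described here are the subunits of the hypoxia-inducible transcription factors (HIFs) and a small set of their angiogenic and metabolic targets, 10 of the 18635 genes in the deposited table. They were taken by gene symbol, and all 10 were present: Hif1a, Epas1 and Arnt (the HIF subunits), Vegfa, Vegfb and Adm (secreted angiogenic factors), Flt1 (a VEGF receptor), and Bnip3, Ankrd37 and Hilpda (intracellular HIF targets). RNA was sequenced from tumor-educated macrophages (TEMs), which are bone marrow-derived macrophages (BMDMs) kept for 24 h in medium conditioned by AE17, a murine mesothelioma cell line. The 4 control samples were Phgdh fl/fl TEMs (Cx3cr1 +/+), and the other 4 were Phgdh fl/fl Cx3cr1-Cre TEMs (Cx3cr1 cre/+), which lack Phgdh, the first enzyme of serine synthesis, wherever Cre has been active. Both groups carried the floxed Phgdh alleles, came from C57BL/6 littermates aged 6 to 8 weeks and were differentiated with L929-conditioned medium for 7 days. Cre was driven by the Cx3cr1 locus, so deletion depended on Cx3cr1 activity in each cell, and 1 Cx3cr1 allele carried Cre. The submitters call the samples biological replicates without saying whether each came from its own mouse. The p-values therefore rest on the spread between these samples, which may not be the spread between mice. BMDMs without tumor-conditioned medium and cells at a set oxygen level were not analysed here, so every comparison below is between genotypes in conditioned medium.

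HIFs are pairs of an alpha subunit (HIF-1α from Hif1a, HIF-2α from Epas1) and the shared beta subunit ARNT. With oxygen present, prolyl hydroxylases mark the alpha subunits for destruction through the VHL ubiquitin ligase, so their activity is controlled mainly at the protein level, which mRNA counts do not show. In macrophages HIF-1α is stabilised by low oxygen, by inflammatory signals and by metabolites, and its targets include glycolytic enzymes and the angiogenic factor VEGF-A. HIFs bind a short core sequence in their target genes, the hypoxia response element, whose usual letters are ACGTG or GCGTG.

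The promoters of the 4 genes that fell in Cx3cr1-Cre TEMs, and those of Vegfa, Vegfb and Hif1a for comparison, are shown to place these core sequences beside the expression values. The sequences are RefSeq promoter windows of GRCm38.p6 (the same assembly as mm10), printed 5′ to 3′ on the strand of the gene, with every match to the core in capitals on either strand (ACGTG and GCGTG, or CACGT and CACGC where the match is on the other strand). Apart from Hilpda, each run covers bases -250 to -21 before the RefSeq start site and lies in no exon of GENCODE M21. The Ankrd37 and Hif1a runs nevertheless lie inside the annotated spans of their genes. The Hilpda run is a 30-base stretch around the ACGTG match at base -43 of its second start site, inside an annotated exon of the gene. The runs are at chr7:138909527-138909756, minus strand (Bnip3), chr8:45999871-46000100, minus strand (Ankrd37), chr7:110627407-110627636, plus strand (Adm), chr6:29272574-29272603, plus strand (Hilpda), chr17:46032398-46032627, minus strand (Vegfa), chr19:6987672-6987901, minus strand (Vegfb) and chr12:73907617-73907846, plus strand (Hif1a).
Bnip3: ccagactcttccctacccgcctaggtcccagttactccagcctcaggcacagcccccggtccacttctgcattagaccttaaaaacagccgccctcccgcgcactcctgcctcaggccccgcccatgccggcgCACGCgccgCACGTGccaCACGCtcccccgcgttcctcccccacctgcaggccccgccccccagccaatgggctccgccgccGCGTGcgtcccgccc
Ankrd37: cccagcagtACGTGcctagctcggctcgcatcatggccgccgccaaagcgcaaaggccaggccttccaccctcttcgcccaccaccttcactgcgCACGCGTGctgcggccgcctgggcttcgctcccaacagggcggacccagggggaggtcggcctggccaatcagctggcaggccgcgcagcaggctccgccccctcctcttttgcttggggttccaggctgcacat
Adm: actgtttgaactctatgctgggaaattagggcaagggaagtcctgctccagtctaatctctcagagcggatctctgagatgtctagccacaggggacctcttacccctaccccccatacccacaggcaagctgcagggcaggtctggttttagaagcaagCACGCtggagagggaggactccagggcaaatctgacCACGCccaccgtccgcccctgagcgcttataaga
Hilpda: ggccagcggACGTGccccagggcgagctcg
Vegfa: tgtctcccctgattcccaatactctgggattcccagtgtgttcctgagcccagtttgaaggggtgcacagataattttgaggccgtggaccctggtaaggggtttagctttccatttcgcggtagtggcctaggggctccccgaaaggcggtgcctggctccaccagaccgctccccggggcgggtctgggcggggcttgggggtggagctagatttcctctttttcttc
Vegfb: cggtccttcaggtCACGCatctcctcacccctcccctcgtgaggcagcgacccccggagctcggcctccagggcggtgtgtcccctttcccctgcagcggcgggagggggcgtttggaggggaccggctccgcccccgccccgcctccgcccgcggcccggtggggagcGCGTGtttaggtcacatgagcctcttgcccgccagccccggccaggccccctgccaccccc
Hif1a: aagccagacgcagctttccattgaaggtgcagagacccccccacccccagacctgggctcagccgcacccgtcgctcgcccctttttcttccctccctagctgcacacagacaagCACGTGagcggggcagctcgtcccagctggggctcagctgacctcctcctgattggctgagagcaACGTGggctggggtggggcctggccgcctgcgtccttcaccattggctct

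RefSeq windows of 300 bases (250 before and 50 after a start site) were found for 9 of the 10 genes, all except Epas1, and gave 11 windows, since Vegfa and Hilpda each have a pair of start sites. Bnip3 held the most matches, 5, of which a pair is 1 palindrome, CACGTG, read on both strands. Ankrd37 held 4, among them an ACGTG at base -241 and another at base -6. The second Hilpda window held 3, with ACGTG at base -43, and the first Hilpda window held 1. Hif1a also held 3, from a CACGTG at base -135 and an ACGTG at base -70. Adm and Vegfb held 2 each, all of the GCGTG form, and Arnt and Flt1 1 each. The first Vegfa window held none. The second held 2, but it lies at chr17:46025114-46025413, inside the annotated span of the gene, so these matches are not upstream of the gene. Of 32851 mouse promoter windows of this length, 43.8% held at least 1 match to either core and 19.6% held ACGTG. A match describes the letters in the window and is not evidence of HIF binding. Sequence outside these windows was not searched, so a window without a match does not show that a gene lacks the element.

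**Figure D1:**
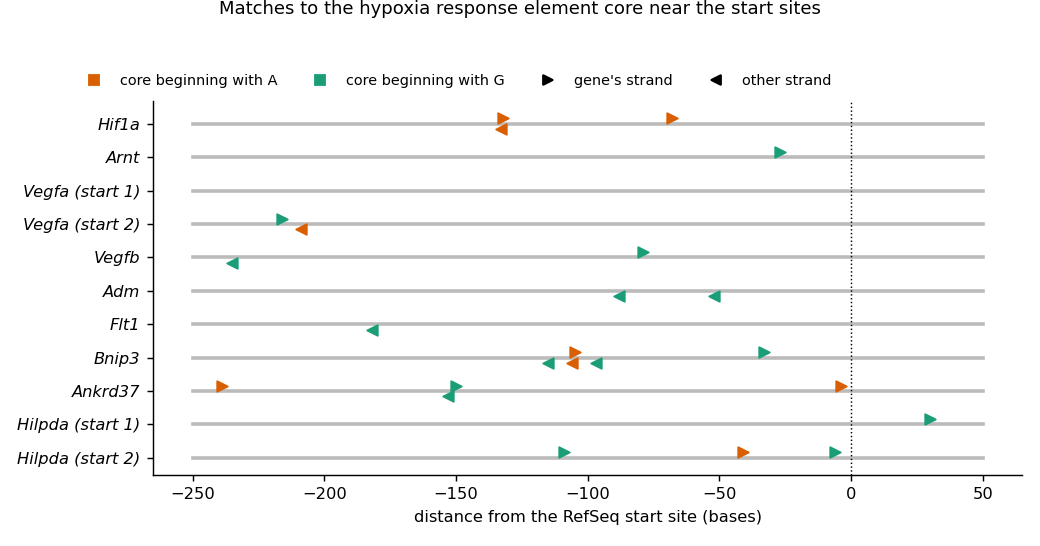
Matches to the core ACGTG (orange) and GCGTG (green) in the 11 promoter windows of 9 genes, by distance in bases from the RefSeq start site (dotted line). Arrowheads pointing right are on the strand of the gene and those pointing left on the other strand. Bnip3 holds 5 matches and the first Vegfa window none, and sequence outside the windows was not searched. The second Vegfa window lies inside the annotated span of the gene.

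The 8 libraries held between 38219563 and 47027420 reads on genes. In normalized read counts, Phgdh fell from 117 ± 9.82 in control to 27.1 ± 9.39 in Cx3cr1-Cre TEMs (SD, n = 4), with no overlap, so no library went against its label. Cx3cr1 itself fell from 1075 ± 94.2 to 660 ± 32.2. All 8 macrophage markers were listed, with a summed level of 14917 to 16447 FPKM in Phgdh fl/fl and 14894 to 16177 in Cx3cr1-Cre TEMs. Most of this sum came from Lyz2 alone (means of 12619 and 12509 FPKM), so it says little about the other markers. The main axis of variation (44.8% of the variance) separated the genotypes, and the next (13.2%) separated replicates 1 and 4 from 2 and 3 in both genotypes, a split that no label explains.

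Of the 10 genes, 9 passed the filter on low values (a mean of at least 10 normalized read counts) and were tested with limma. Adm, Bnip3, Ankrd37 and Hilpda fell in Cx3cr1-Cre TEMs, and Hif1a, Arnt and Vegfb rose, while Vegfa and Epas1 did not pass the test. Genotype differences were widespread in this experiment: 41.0% of the 13629 tested genes had an adjusted p under 0.05, with 20.8% higher and 20.3% lower in Cx3cr1-Cre TEMs, beside 3 higher and 4 lower of the 9 genes here. Likewise, the 4 samples of one genotype lay wholly above or below the other for 7 of the 9 genes and for 36.7% of all tested genes. These shares of all tested genes were not matched for expression level. In simulated data with an absolute log2 fold change of 0.3, limma called 53 of 56 genes with a mean of at least 100. With a mean of 10 to 100, limma called 0 of 11. None of the 9 genes passed an absolute log2 fold change over 1.5, a cutoff that 0.404% of the tested genes passed together with the adjusted p. The median log2 fold change of the 9 genes was -0.052, beside -0.0018 over all tested genes. As these are bulk samples, fewer cells expressing a gene and less RNA of it per cell cannot be told apart.

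**Figure D2:**
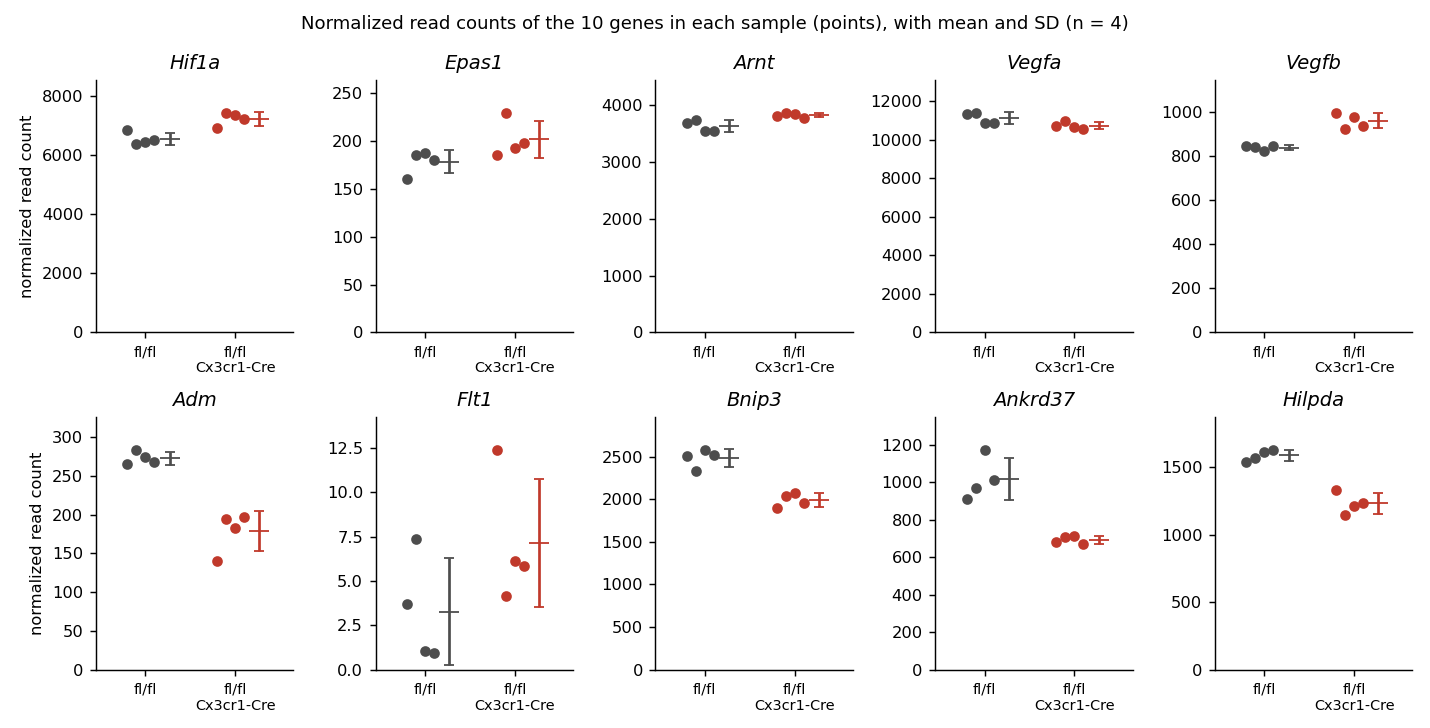
Normalized read counts of the 10 genes in each sample, with Phgdh fl/fl TEMs in grey and Phgdh fl/fl Cx3cr1-Cre TEMs in red; points are the 4 samples of a genotype and bars the mean and SD, on axes that start at 0. The genotypes do not overlap for Hif1a, Arnt, Vegfb, Adm, Bnip3, Ankrd37 and Hilpda, and overlap for Vegfa, Epas1 and Flt1.

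Per length of transcript, Vegfa was the most abundant of the 10 genes, at 60.0 ± 1.69 FPKM in Phgdh fl/fl TEMs. It was followed by Hilpda (33.1 ± 0.821), Hif1a (25.7 ± 0.852) and Bnip3 (25.3 ± 1.08), and then by Ankrd37 (15.2 ± 1.67), Vegfb (12.1 ± 0.175) and Arnt (10.4 ± 0.319). Adm stood at 3.89 ± 0.117 FPKM, Epas1 at 0.736 ± 0.0487 and Flt1 at 0.00559 ± 0.00517. Only Hif1a and Bnip3 could not be ordered among neighbours in this ranking, since their samples overlapped. In Cx3cr1-Cre TEMs Vegfa remained at the top (58.5 ± 0.998 FPKM) but the middle of the order changed: Hif1a (28.6 ± 0.961) had the higher mean than Hilpda (26.0 ± 1.56), with samples that overlapped, and Ankrd37 (10.5 ± 0.356) now lay below both Vegfb (13.9 ± 0.474) and Arnt (11.1 ± 0.144) in every sample. The level of Hif1a was far above that of Epas1 in both genotypes.

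Among the HIF subunits, Hif1a rose by a small amount. Hif1a (ENSMUSG00000021109, chr12:73901375-73947530, plus strand) counted 6863, 6378, 6469 and 6519 normalized reads in Phgdh fl/fl TEMs and 6932, 7449, 7361 and 7222 in Cx3cr1-Cre TEMs. The highest control sample lay just under the lowest Cx3cr1-Cre sample, so the genotypes did not overlap. The means were 6557 ± 212 and 7241 ± 226 (SD, n = 4), a log2 fold change of 0.14 (SE 0.03, adjusted p = 0.000259), and 76.8% of the tested genes had a lower fold change. Hif1a shares its whole span with the antisense gene Gm15283, whose counts were 17.4 and 10.2 in Phgdh fl/fl and Cx3cr1-Cre TEMs.

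Epas1, which encodes the second HIF alpha subunit (ENSMUSG00000024140, chr17:86753700-86833410, plus strand), was expressed at a low level. Its normalized counts were 160.8, 185.0, 187.1 and 180.3 in Phgdh fl/fl and 185.6, 229.7, 193.2 and 198.4 in Cx3cr1-Cre TEMs. The lowest Cx3cr1-Cre sample fell among the controls, so the genotypes overlapped. The means were 178 ± 12.0 and 202 ± 19.4, and the log2 fold change of 0.17 (95% interval -0.012 to 0.36) did not pass the test (adjusted p = 0.127), so a change as large as that of Hif1a was not detectable in this gene. Within samples, the log2 ratio of Hif1a over Epas1 was 5.19 ± 0.14 in Phgdh fl/fl and 5.16 ± 0.10 in Cx3cr1-Cre TEMs (difference -0.032, exact two-sided permutation p = 0.743).

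Arnt, the shared beta subunit (ENSMUSG00000015522, chr3:95434388-95497240, plus strand), had 3680, 3740, 3532 and 3534 normalized counts in Phgdh fl/fl and 3812, 3863, 3846 and 3768 in Cx3cr1-Cre TEMs. The groups were separate but close. The means of 3621 ± 105 and 3822 ± 42.0 gave a log2 fold change of 0.078 (SE 0.03, adjusted p = 0.0239), the smallest change among the 7 genes that passed the test. This call was lost in 5 of 17 alternative analyses, among them those without control replicate 3 or 4 or Cx3cr1-Cre replicate 2 or 3, where the adjusted p was 0.0572 to 0.0776. Arnt lies 2.82 Mb from Phgdh, the floxed gene, on the same chromosome, and both genotypes carried the floxed alleles. Whether this position bears on the Arnt difference was not tested.

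Of the secreted angiogenic factors, Vegfb rose and Adm fell, while Vegfa did not pass the test. Vegfa (ENSMUSG00000023951, chr17:46016993-46032369, minus strand), the main inducer of vessel growth, had 11370, 11418, 10868 and 10897 normalized counts in Phgdh fl/fl and 10743, 10977, 10666 and 10588 in Cx3cr1-Cre TEMs. Control replicates 3 and 4 lay inside the range of the Cx3cr1-Cre samples. The means were 11138 ± 296 and 10743 ± 168, a log2 fold change of -0.052 with a 95% interval of -0.10 to -0.0028, and neither limma (adjusted p = 0.0852) nor the exact two-sided permutation test (p = 0.0857) passed the threshold. Each library held between 9548 and 12405 Vegfa reads.

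Vegfb (ENSMUSG00000024962, chr19:6982473-6987651, minus strand), a relative of Vegfa that binds the receptor FLT1, behaved otherwise. Its normalized counts were 844.1, 841.2, 821.8 and 846.2 in Phgdh fl/fl and 996.9, 923.9, 978.0 and 938.5 in Cx3cr1-Cre TEMs. All Cx3cr1-Cre samples were above all controls. The means rose from 838 ± 11.2 to 959 ± 33.9 (log2 fold change 0.19, SE 0.04, adjusted p = 0.00061), and 82.4% of the tested genes had a lower fold change. Within samples, the log2 ratio of Vegfa over Vegfb fell from 3.73 ± 0.03 to 3.48 ± 0.06, without overlap (difference -0.25). The exact two-sided permutation p was 0.0286, the smallest that 4 against 4 samples allow, and 0.0429 after Benjamini-Hochberg adjustment over the 3 ratios computed.

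Adm encodes adrenomedullin, a vasodilator and angiogenic peptide (ENSMUSG00000030790, chr7:110627661-110629820, plus strand), and showed the strongest decrease of the 9 genes. Its normalized counts were 265.0, 283.5, 275.0 and 268.1 in Phgdh fl/fl and 140.6, 194.3, 183.0 and 197.4 in Cx3cr1-Cre TEMs. Every Cx3cr1-Cre sample was below every control, and Cx3cr1-Cre replicate 1 was the lowest. The mean fell by 34.5%, from 273 ± 8.22 to 179 ± 26.2 (log2 fold change -0.62, SE 0.10, adjusted p = 2.0e-05), and only 1.86% of the tested genes had a lower fold change. Across the 17 alternatives the log2 fold change ranged from -0.67 to -0.51, with an adjusted p under 0.05 in all.

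Flt1, the VEGF receptor bound by VEGF-A and VEGF-B (ENSMUSG00000029648, chr5:147561604-147726011, minus strand), was close to absent. It had 4, 8, 1 and 1 reads in the Phgdh fl/fl libraries and 11, 4, 6 and 6 in the Cx3cr1-Cre libraries. The genotypes overlapped, and the gene did not reach the filter. The exact two-sided permutation p was 0.171, and a difference was not detectable at this depth.

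The intracellular targets Bnip3, Ankrd37 and Hilpda all fell. Bnip3 (ENSMUSG00000078566, chr7:138890836-138909519, minus strand) is a mitochondrial protein that promotes mitophagy. It had 2511, 2329, 2577 and 2523 normalized counts in Phgdh fl/fl and 1898, 2035, 2074 and 1960 in Cx3cr1-Cre TEMs. The groups were clearly separate. The mean fell by 19.9%, from 2485 ± 108 to 1992 ± 78.3 (log2 fold change -0.32, SE 0.04, adjusted p = 3.8e-07). Its close relative Bnip3l, also a mitophagy receptor, did not pass the test (4693 ± 161 and 4840 ± 98.0, log2 fold change 0.045, adjusted p = 0.208). The log2 ratio of Bnip3 over Bnip3l fell from -0.92 ± 0.02 to -1.28 ± 0.07 (difference -0.36, exact two-sided permutation p = 0.0286, adjusted over the 3 ratios 0.0429).

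Ankrd37, an ankyrin repeat protein known as a HIF target (ENSMUSG00000050914, chr8:45996902-46005707, minus strand), had 910.1, 969.2, 1173 and 1015 normalized counts in Phgdh fl/fl and 683.0, 709.8, 715.7 and 669.1 in Cx3cr1-Cre TEMs. The controls were more spread than the Cx3cr1-Cre samples, and the lowest control was still above all of them. The mean fell by 31.7%, from 1017 ± 113 to 694 ± 22.1 (log2 fold change -0.54, SE 0.06, adjusted p = 2.1e-07), and 2.36% of the tested genes had a lower fold change. Its span shares 57 bases with Ufsp2 on the opposite strand, which had 3389 and 3427 normalized counts in the genotypes (adjusted p = 0.679). Also on the opposite strand, Lrp2bp shares 6405 bases of the span, with 7.04 and 5.52 normalized counts in Phgdh fl/fl and Cx3cr1-Cre TEMs. The strand setting of the counting is not given in the sources used here, so reads in a shared stretch cannot be assigned.

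Hilpda, which promotes the storage of lipid in droplets under hypoxia (ENSMUSG00000043421, chr6:29272488-29275446, plus strand), had 1535, 1566, 1613 and 1625 normalized counts in Phgdh fl/fl and 1330, 1144, 1214 and 1231 in Cx3cr1-Cre TEMs. Again no sample overlapped. The mean fell by 22.4%, from 1584 ± 41.7 to 1230 ± 76.6 (log2 fold change -0.37, SE 0.04, adjusted p = 3.9e-07). The 4 genes that fell were thus called in the direction opposite to Hif1a and Arnt.

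**Figure D3:**
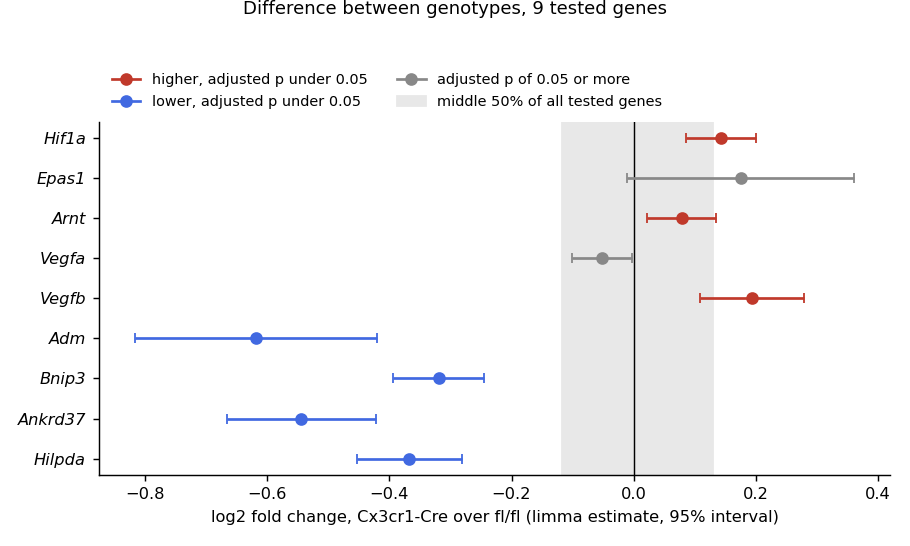
Log2 fold change of Phgdh fl/fl Cx3cr1-Cre over Phgdh fl/fl TEMs for the 9 tested genes, as limma estimates with 95% intervals; the grey band holds the middle 50% of all tested genes. Adm (-0.62), Ankrd37 (-0.54), Hilpda (-0.37) and Bnip3 (-0.32) lie below the band, and the intervals of Vegfa and Arnt lie close to 0.

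**Figure D4:**
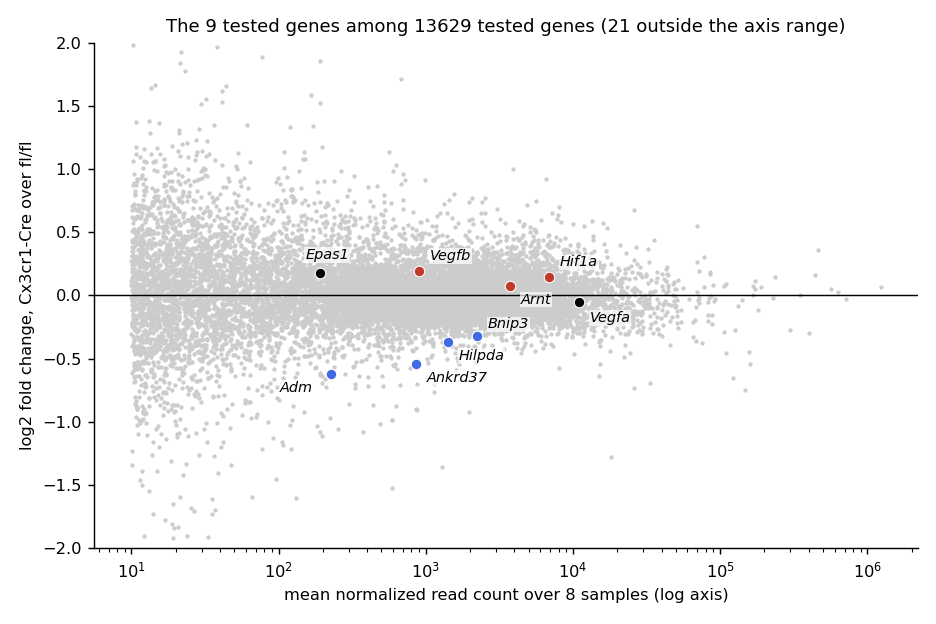
Log2 fold change against mean normalized read count (log axis) for 13629 tested genes (grey), with the 9 tested genes named in red (higher), blue (lower) or black (adjusted p of 0.05 or more). Vegfa and Hif1a are among the more abundant genes with small differences, and 21 genes lie outside the plotted range.

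By likeness of expression over the 8 samples, the genes closest to Vegfa were Crybg1 (Pearson r = 0.990), Tet3 (0.976) and Fubp3 (0.967), and those closest to Hif1a were Heca (0.995), Zfp442 (0.992) and Ldlrad4 (0.991). These values describe 8 points that form 2 genotype groups and share their library scaling.

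The remaining genes of the pathway were described from 5 lists. Of their 89 genes, 82 were in the table and 76 were tested, of which 19 (25.0%) rose and 32 (42.1%) fell in Cx3cr1-Cre TEMs, beside 20.8% and 20.3% of all tested genes. Their median log2 fold change was -0.094, beside -0.0018 over all tested genes. As above, the shares of all tested genes were not matched for expression level, and the lists were chosen with earlier results known. Among the tested genes, only Angptl4 passed an absolute log2 fold change over 1.5. The angiogenic ligand Fgf2, under the filter, was not tested. Its means were 8.09 and 2.30 normalized counts in Phgdh fl/fl and Cx3cr1-Cre TEMs (log2 fold change -1.68, without overlap).

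The oxygen-sensing list (15 genes, all tested) held 3 that rose (20.0%) and 6 that fell (40.0%), with a median of -0.079. All 3 prolyl hydroxylases, the enzymes that mark HIF alpha subunits for degradation, fell. Egln3, itself a HIF target, had 1178, 1230, 1292 and 1221 normalized counts in Phgdh fl/fl and 830.4, 800.2, 877.3 and 894.7 in Cx3cr1-Cre TEMs, and fell without overlap (log2 fold change -0.53, adjusted p = 4.0e-09). Egln1 fell from 2715 ± 62.8 to 2369 ± 69.4 (-0.20, adjusted p = 2.0e-05) and Egln2 from 2166 ± 63.3 to 1934 ± 45.3 (-0.16, adjusted p = 0.000276). The asparaginyl hydroxylase Hif1an, which blocks the HIF transactivation domain, rose from 1800 ± 57.6 to 1986 ± 59.0 (0.14, adjusted p = 0.00176). Of the VHL complex, Vhl did not pass the test (-0.036, adjusted p = 0.492), while the adaptor subunits Elob (-0.23) and Eloc (-0.22) fell and the scaffold Cul2 (0.018, adjusted p = 0.658) and the RING subunit Rbx1 (-0.10, adjusted p = 0.0559) did not pass. Ep300, a HIF coactivator, rose by 0.12 and Arnt2, a relative of Arnt, by 0.29 on the log2 scale, both with overlapping groups. The call for Arnt2 (adjusted p = 0.0277) was lost in 7 of 17 alternatives, among them those without control replicate 2 or 3 or Cx3cr1-Cre replicate 1 or 4 (adjusted p from 0.0684 to 0.0953).

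Of the 19 glycolytic targets, 13 fell (68.4%) and 2 rose (10.5%), with a median log2 fold change of -0.22. The lowest were Pfkl, a phosphofructokinase subunit (5161 ± 146 to 3772 ± 90.9, log2 fold change -0.45, adjusted p = 3.4e-11), the enolase Eno1 (-0.36) and the lactate dehydrogenase subunit Ldha (38537 ± 651 to 31354 ± 354, -0.30). The glucose transporter Slc2a1 fell by 0.28 and Pdk1, which restrains pyruvate entry into mitochondria, by 0.26 on the log2 scale. Pfkfb3, which makes an activator of phosphofructokinase, went the other way (5396 ± 114 to 6416 ± 72.9, 0.25, adjusted p = 3.7e-08). The hexokinase Hk1 also rose (0.088, adjusted p = 0.0133), a call that was lost without control replicate 2 (adjusted p = 0.0584) or Cx3cr1-Cre replicate 1 (adjusted p = 0.0676).

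The other hypoxia targets were mixed. Of the 25 tested, 10 fell (40.0%) and 7 rose (28.0%), with a median log2 fold change of -0.024. Angptl4, a secreted inhibitor of lipoprotein lipase, had 84.6, 82.8, 119.9 and 115.4 normalized counts in Phgdh fl/fl and 31.5, 27.0, 35.6 and 35.0 in Cx3cr1-Cre TEMs. The groups were far apart (log2 fold change -1.60, adjusted p = 1.1e-07). The collagen lysyl hydroxylase Plod2 (389 ± 13.9 to 265 ± 16.3, -0.56) fell as well. In the opposite direction, the inducible nitric oxide synthase Nos2 (69.0 ± 7.23 to 114 ± 13.0, 0.72, adjusted p = 0.000106), the nuclear receptor Rora (972 ± 57.4 to 1385 ± 73.6, 0.51) and the lipoprotein receptor Vldlr (277 ± 23.9 to 346 ± 14.7, 0.32) rose. The oxidoreductase Ero1l, listed as Ero1a in the table, rose by 0.14 on the log2 scale.

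Of the 13 angiogenic ligands tested, 4 rose (30.8%) and 2 fell (15.4%), beside 20.8% and 20.3% of all tested genes, with a median log2 fold change of -0.098. Il1b (111 ± 17.0 to 172 ± 25.9, log2 fold change 0.62, adjusted p = 0.00031), Hgf, the hepatocyte growth factor (665 ± 88.3 to 959 ± 52.5, 0.54), and Pdgfc (896 ± 64.5 to 1166 ± 44.5, 0.38) were the highest of those that passed the test. Thbs1, an inhibitor of angiogenesis, fell by 0.18 and Pdgfb by 0.16 on the log2 scale. Pgf, a FLT1 ligand of the VEGF family, was low (12.2 ± 6.85 and 16.2 ± 4.31) and did not pass the test (0.50, adjusted p = 0.274).

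Of 10 receptors listed, 4 were tested, and all 4 passed, beside 41.0% of all tested genes. Kdr, the main signalling receptor of VEGF-A, had 556.9, 565.1, 498.2 and 494.2 normalized counts in Phgdh fl/fl and 674.0, 653.7, 669.9 and 614.7 in Cx3cr1-Cre TEMs, and rose without overlap (log2 fold change 0.31, adjusted p = 0.00014). The VEGF co-receptors Nrp2 (26890 ± 996 to 30231 ± 261, 0.17) and Nrp1 (0.11, with overlapping groups) also rose, though Nrp1 lost its call with eBayes without trend (adjusted p = 0.0711). Calcrl, which binds adrenomedullin only together with a RAMP partner, fell from 7325 ± 206 to 6287 ± 161 (-0.22, adjusted p = 7.7e-07). Of the RAMP genes, Ramp2 was not listed, and Ramp1 and Ramp3 were under the filter, with 4 to 12 reads a library.

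**Figure D5:**
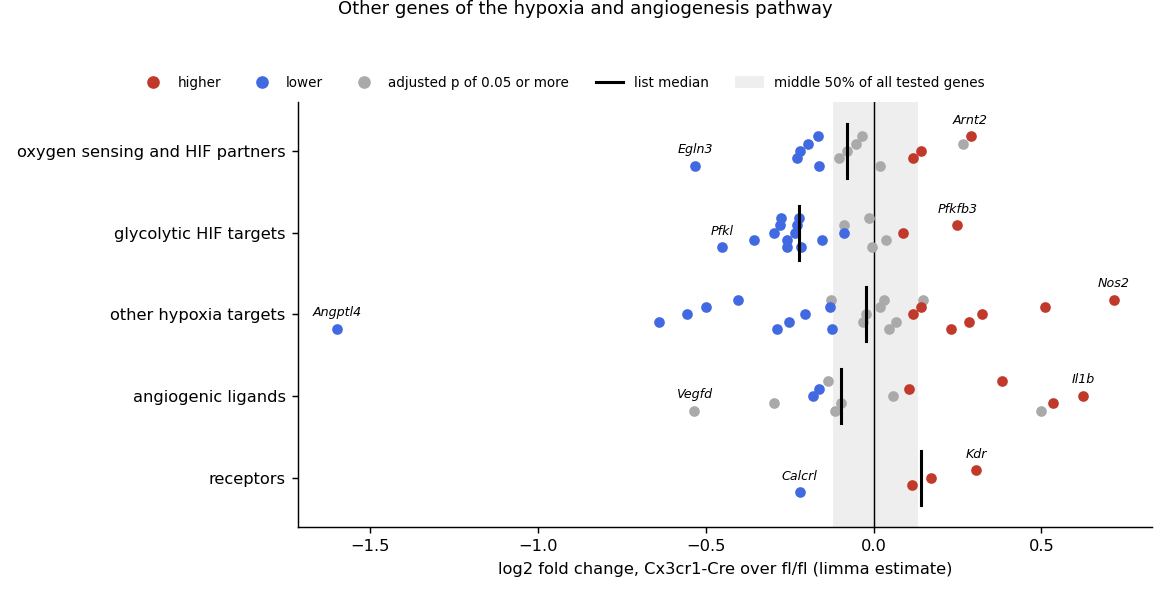
Log2 fold changes (limma) of the 76 tested genes in 5 pathway lists, with the list median as a black bar and the middle 50% of all tested genes as a grey band; red and blue points have an adjusted p under 0.05. The glycolytic median (-0.22) lies below the band, and Angptl4 (-1.60) is the farthest point.

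Because Kdr and Flt1 are also endothelial genes, markers of other cell types were summed. The endothelial list reached 4.10 to 4.67 FPKM in Phgdh fl/fl and 5.61 to 5.97 FPKM in Cx3cr1-Cre TEMs, with no overlap. Of its 8 genes, 5 were listed (Tek, Tie1 and Emcn were not), and the difference lay in Vwf (1691 ± 63.0 to 2506 ± 127, log2 fold change 0.57) and Kdr, while Pecam1, Cdh5 and Egfl7 did not pass the test. Cdh5 and Egfl7 were near the detection limit in both genotypes (means of 8.45 to 12.5 normalized counts). Of the 8 macrophage markers, 4 fell: Adgre1 (-0.084), Itgam (-0.19), Fcgr1 (-0.40) and Cd14 (-0.32). The neutrophil marker S100a8, alone among 7 in being listed, rose by 0.23 on the log2 scale (15.5 to 19.1 FPKM in Phgdh fl/fl and 19.3 to 21.2 in Cx3cr1-Cre TEMs). The summed levels of the fibroblast (0.109 to 0.138 and 0.0963 to 0.181 FPKM), dendritic (0.347 to 0.567 and 0.546 to 0.697), lymphocyte (0.0927 to 0.110 and 0.0497 to 0.159) and mesothelial markers (0.00675 to 0.0244 and 0.00688 to 0.0336) overlapped between Phgdh fl/fl and Cx3cr1-Cre TEMs. The part of these markers in the differences above was not tested.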

How the data were processed

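RNA of 4 Phgdh fl/fl and 4 Phgdh fl/fl Cx3cr1-Cre TEM samples was sequenced as single-end reads of directional libraries. According to the methods and the submitters' processing notes, reads were mapped to mm10 with TopHat2 and counted per gene with HTSeq 0.6, and the genotypes were compared with DESeq2. The values the authors deposited are a scaled signal: each sample's read counts over its size factor (0.889 to 1.09), called normalized read counts here, although the methods speak of FPKM. Whole reads were recovered for 100% of 144353 values above 0 (tolerance 0.01 reads). The deposited table also holds the authors' mean, fold change and p-value columns, which were not used.

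Values were tested as log2(normalized count + 1) with limma 3.58.1 (R 4.3.3, eBayes with trend, two-sided) for genes with a mean of at least 10, with Benjamini-Hochberg adjustment over all 13629 such genes and a threshold of 0.05. Fold changes are on this log2 scale, which understates low genes. FPKM, used for levels between genes, were computed from the recovered reads, the reads on genes and the summed exon length of GENCODE M21 (GRCm38). Single values and ratios were tested with an exact two-sided permutation test over 70 labelings, whose smallest p is 0.0286. The named pathway genes were the 3 lowest and 3 highest called genes of each list plus a set of regulators and receptors; 1 of them is not reported here. The genes and lists were chosen with earlier results of these data known. edgeR 4.0.16 and DESeq2 1.42.0 on the recovered reads were alternatives. The fits were first tested on simulated data.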

Additional observations from a re-analysis of the deposited data

How the results depend on the processing

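Adm, Bnip3, Ankrd37 and Hilpda fell and Hif1a and Vegfb rose in all 17 alternatives (pseudocount, filters, scaling, edgeR, DESeq2, replicate block and each sample left out), and Vegfa (adjusted p from 0.0542 to 0.301) and Epas1 (0.0913 to 0.380) passed in none. Arnt lost its call with eBayes without trend (adjusted p = 0.0565) and without 4 of the samples in turn (0.0572 to 0.0776). With the absolute log2 fold change over 1.5 as well, 55 genes were called in place of 5594; on the recovered reads edgeR called 5608 and DESeq2 5066. The count of glycolytic targets called higher was 1 with eBayes without trend and ranged from 1 to 2 when a sample was left out. The difference in the log2 ratio of Hif1a over Epas1 ranged from -0.063 to 0.039 when a sample was left out, changing sign without control replicate 1 (0.039) or Cx3cr1-Cre replicate 2 (0.018); the cause was not tested. Nrp1 (adjusted p = 0.0711) and Hk1 (0.0829) also lost their calls with eBayes without trend. Samples with the same number deviated together only weakly (correlations 0.0628 to 0.126). Control replicates 2, 3 and 4 correlated best with their own number, but control replicate 1 did so with Cx3cr1-Cre replicate 4 (0.135). The numbers were not taken as pairs, and whether samples shared a batch was not tested. With the replicate block 5597 genes were called, among them 3 of the genes higher and 4 lower. Scaling moved the median of all tested genes to between -0.012 and 0.013. Depth limits Flt1, with 1 to 11 reads a library.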
